A study of Mus musculus with 7 samples.

Results

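Chromatin accessibility was examined at 10 genes of the unfolded protein response and the integrated stress response (Ern1, Eif2ak3, Atf6, Creb3l3, Xbp1, Atf4, Ddit3, Trib3, Asns and Chac1) in the liver of young and aged mice. The measurements come from ATAC-seq, in which a transposase cuts accessible DNA and reads are counted over regions called as open. A region belonged to a gene when it overlapped the gene body or the 10 kb on either side of it in GENCODE M21 (build GRCm38), which gave 55 of the 55680 regions of the study. The libraries were 3 young (3 months) and 4 aged (18 months) samples of whole liver from male C57BL/6N mice, whose nuclei were released with a lysis buffer and tagmented by the Omni-ATAC protocol. The 4 aged samples came from 3 animals, since different lobules of 1 animal were used as separate samples, and the labels do not say which samples these are. The tests count them as 4.

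Cells respond to unfolded proteins in the endoplasmic reticulum (ER) through sensors in the ER membrane. The kinase and endonuclease IRE1 (Ern1) splices the mRNA of the transcription factor XBP1, the kinase PERK (Eif2ak3) slows translation by phosphorylating eIF2 alpha, and ATF6 and CREBH (Creb3l3) are membrane-bound transcription factors released by cleavage. Phosphorylated eIF2 alpha also favours translation of ATF4, the effector of the integrated stress response, which acts with partners on genes such as Ddit3 (CHOP), Trib3, Asns and Chac1. The liver secretes large amounts of protein and is a tissue in which these pathways have been much studied.

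All 10 genes had an open promoter region, taken as the most accessible region within 200 bp of an annotated transcription start site (TSS). The sequences below are those of the promoters on which the comparison of ages turns. The sites of the only stress motif found in promoter windows of the 10 genes follow them. Letters were read from RefSeq promoter windows of 300 bases on GRCm38.p6 (250 before and 50 after the start) and are written 5′ to 3′ on the strand of the gene. For Ern1, whose promoter was more accessible in aged liver, the 194 bases before the first annotated exon (chr11:106487853-106488046, minus strand) have no match to any motif searched.
Ern1: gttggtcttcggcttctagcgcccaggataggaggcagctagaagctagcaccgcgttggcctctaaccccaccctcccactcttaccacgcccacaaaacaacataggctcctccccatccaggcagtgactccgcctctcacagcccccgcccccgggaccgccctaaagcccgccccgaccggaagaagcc
For Asns, whose promoter was less accessible in aged liver, the 205 bases before the first annotated exon are at chr6:7693255-7693459 (minus strand).
Asns: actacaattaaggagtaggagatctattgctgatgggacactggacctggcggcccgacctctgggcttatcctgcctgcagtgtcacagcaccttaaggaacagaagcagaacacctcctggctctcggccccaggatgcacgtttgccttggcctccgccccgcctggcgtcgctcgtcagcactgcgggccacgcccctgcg

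Motifs tied to these pathways were searched on both strands of the 300-base windows. The C/EBP-ATF response element (CARE, TGATGNAA), a site of ATF4 and its partners, was in the windows of Trib3, Asns and Chac1, and in 3.97% of 32817 promoter windows. The cAMP response element (TGACGTCA, 1.79% of all windows), the unfolded protein response element (TGACGTGG, 0.676%) and the ER stress response elements ERSE (CCAAT and CCACG 9 bases apart, 0.119%) and ERSE-II (ATTGG and CCACG 1 base apart, 0.0366%) had no match in the windows of the 10 genes. The 3 CARE matches are shown in 30 bases each, with the motif in capitals, on the strand of the gene.
Trib3: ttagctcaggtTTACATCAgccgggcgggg
Asns: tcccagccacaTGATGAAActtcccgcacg
Chac1: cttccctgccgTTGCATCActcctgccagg
The 30 bases of Trib3 lie at chr2:152344028-152344057 (minus strand), those of Asns at chr6:7693214-7693243 (minus strand) and those of Chac1 at chr2:119351038-119351067 (plus strand). The Trib3 match begins at base 15 after the RefSeq start and lies in reverse orientation. The Asns match has its first base at -23 from the RefSeq start. It lies past the start of the first annotated exon, and so outside the 205 bases shown for Asns. The Chac1 match has its first base at -193, again reversed. In the central 300 bases of the regions themselves, CARE was found in 3 of the 55 regions (at Trib3, Chac1 and an Ern1 intron) and in 4.16% of all 55680. A match of letters is not a measured binding site.

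The promoter of 1 gene became more accessible with age and that of 1 gene less accessible at an adjusted p under 0.05 (edgeR quasi-likelihood test, Benjamini-Hochberg over all regions), and these were Ern1 and Asns. Across all promoter regions of the study, 4.48% were called higher and 2.06% lower. The fold change was above 0 at 8 of the 10 promoters (against 61.1% of all promoter regions), with a median of 0.31 on the log2 scale (0.094 over 15422 promoter regions of the study). With offsets fitted on mean abundance, it was above 0 at 4 of the 10, with a median of -0.010. Accessibility is given as log2 CPM (read counts scaled to library size), and log2 fold changes are aged over young, so that positive values mean higher in aged liver.

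**Figure D1:**
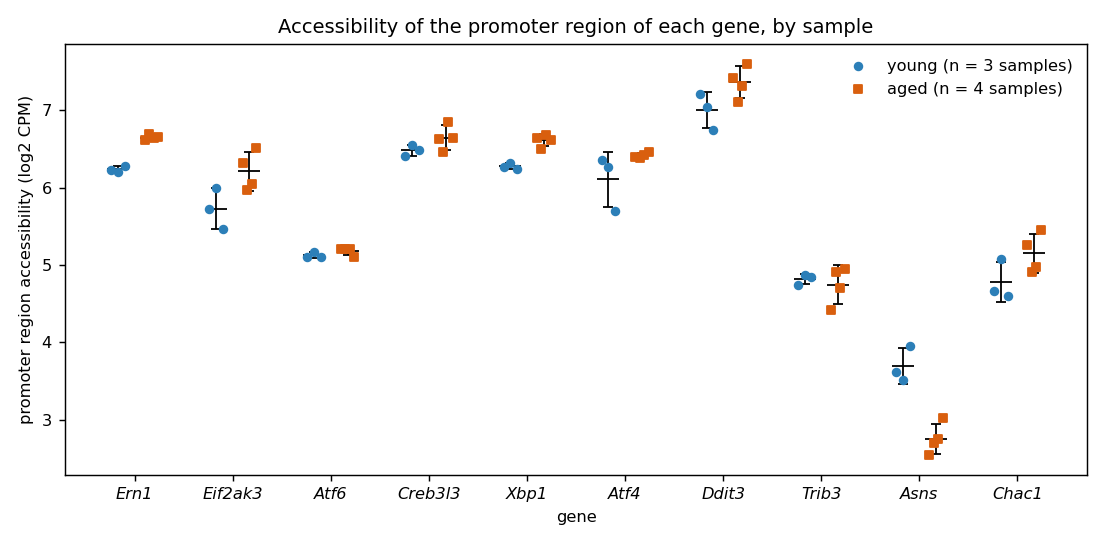
Accessibility (log2 CPM) of the promoter region of each of the 10 genes (x axis) in each young (circles, n = 3) and aged (squares, n = 4) sample, with the mean and SD in black. The ages do not overlap at Ern1, Xbp1 and Atf4, where aged samples are higher (20.4% of all promoter regions), and at Asns, where they are lower (8.88%).

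Among the sensors, the Ern1 promoter (chr11:106487059-106488921, covering the TSS and the start of the coding sequence) measured 6.23, 6.20 and 6.28 log2 CPM in young liver and 6.61, 6.69, 6.64 and 6.65 in aged liver. All aged samples were higher, and the gap between the ages was larger than the spread within either. The log2 fold change was 0.41 ± 0.10 (SE; edgeR quasi-likelihood, adjusted p = 0.032), from 75.3 ± 2.07 CPM (SD, n = 3) to 100.2 ± 2.25 (SD, n = 4). The call was kept in 9 of the 20 alternative fits and lost in 11. It was lost without aged 1, aged 3, young 1 or young 2 (edgeR, adjusted p from 0.081 to 0.12), in 3 of the 6 fits that summed a pair of aged samples, with a replicate block (0.064), with total counts as library size (0.078), with at least 10 counts in every sample (0.062) and with offsets fitted on mean abundance, where the log2 fold change was 0.11 (edgeR, adjusted p = 0.647).

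The promoter of Eif2ak3, which encodes PERK (chr6:70843596-70845137), measured 5.72, 6.00 and 5.47 log2 CPM in young and 6.31, 5.97, 6.05 and 6.52 in aged liver. Aged 2 lay just below the highest young sample, so the ages overlapped. Its log2 fold change of 0.48 ± 0.15 (SE) missed the threshold with edgeR (adjusted p = 0.075) and passed it with DESeq2 (adjusted p = 0.042). Offsets fitted on mean abundance gave 0.23 (edgeR, adjusted p = 0.430).

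The Atf6 promoter (chr1:170866894-170868911), which also covers a start of the gene model Gm9929, measured 5.11, 5.17 and 5.10 log2 CPM in young and 5.20, 5.20, 5.20 and 5.10 in aged liver. The ages overlapped, with aged 4 the lowest of all samples. The log2 fold change, 0.049 ± 0.11 (SE; edgeR, adjusted p = 0.823), was smaller than its SE, and was -0.11 with offsets fitted on mean abundance.

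Creb3l3 encodes CREBH, a liver-enriched factor linked to lipid metabolism and the acute phase response. Its promoter region (chr10:81090502-81093417) covers a start site inside the annotated gene, and no region overlapped the RefSeq window of the most upstream start. This region measured 6.41, 6.55 and 6.49 log2 CPM in young and 6.63, 6.47, 6.85 and 6.64 in aged liver (log2 fold change 0.17 ± 0.11, SE; edgeR, adjusted p = 0.385), and the ages overlapped. The value was 0.099 without aged 3 and -0.15 with offsets fitted on mean abundance.

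Xbp1, whose mRNA is the splicing target of IRE1, had a promoter region at chr11:5520162-5522571. It measured 6.27, 6.32 and 6.24 log2 CPM in young and 6.65, 6.51, 6.68 and 6.62 in aged liver, with every aged sample above every young one. The log2 fold change of 0.34 ± 0.10 (SE) was just outside the threshold with edgeR (adjusted p = 0.064) and inside it with DESeq2 (adjusted p = 0.020). It was 0.22 with total counts as library size (edgeR, adjusted p = 0.161) and 0.035 with offsets fitted on mean abundance (edgeR, adjusted p = 0.891).

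The promoter of Atf4 (chr15:80254301-80256145) measured 6.36, 6.26 and 5.70 log2 CPM in young and 6.40, 6.39, 6.42 and 6.46 in aged liver. The ages did not overlap, but young 1 was close to the aged samples and young 3 stood well below the rest. The log2 fold change of 0.27 ± 0.14 (SE; edgeR, adjusted p = 0.245) was 0.12 without young 3 and -0.0012 with offsets fitted on mean abundance.

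Ddit3 encodes CHOP, a factor associated with stress-induced cell death. Its promoter region (chr10:127287762-127291561) spans 3800 bp, the longest of the 55 regions, and also covers starts of Mbd6 and of the gene models Gm20492 and Gm4189, so its reads cannot be assigned to 1 gene. It measured 7.21, 7.05 and 6.75 log2 CPM in young and 7.42, 7.11, 7.32 and 7.61 in aged liver (log2 fold change 0.36 ± 0.14, SE; edgeR, adjusted p = 0.131), and aged 2 lay below young 1. The value was 0.43 and passed the threshold with offsets fitted on GC content (edgeR, adjusted p = 0.016), and with offsets fitted on mean abundance it was -0.019 (edgeR, adjusted p = 0.946).

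Of the other ATF4 target genes, Trib3 encodes a pseudokinase and Chac1 an enzyme that degrades glutathione. The Trib3 promoter (chr2:152343415-152344709) measured 4.74, 4.87 and 4.85 log2 CPM in young and 4.42, 4.92, 4.71 and 4.95 in aged liver (log2 fold change -0.063 ± 0.15, SE; edgeR, adjusted p = 0.831). The Chac1 promoter (chr2:119350719-119351611) measured 4.67, 5.07 and 4.60 log2 CPM in young and 5.25, 4.92, 4.98 and 5.45 in aged liver (log2 fold change 0.37 ± 0.16, SE; edgeR, adjusted p = 0.175). The ages overlapped at both, at Chac1 because of young 2. The values were -0.17 at Trib3 and 0.23 at Chac1 with offsets fitted on mean abundance, and Trib3 was at 0.048 without aged 1.

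Asns, which encodes asparagine synthetase, differed most among the promoters. Its promoter region (chr6:7691559-7693455) measured 3.62, 3.51 and 3.95 log2 CPM in young and 2.54, 2.69, 2.75 and 3.02 in aged liver. Every aged sample lay below every young one, and the mean fell from 12.9 ± 2.15 CPM (SD, n = 3) to 6.58 ± 0.954 (SD, n = 4). This is a log2 fold change of -0.95 ± 0.21 (SE; edgeR, adjusted p = 0.020). The call was kept in 5 of the 6 fits that summed a pair of aged samples but in 2 of the 7 that left out 1 sample (without aged 2 or aged 4), and the direction held in all 20 alternative fits, with log2 fold changes from -1.08 to -0.80. The promoter was supported by 28 to 296 reads per library, fewer than any other promoter of the 10 genes.

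Per kilobase of region, the young promoters ranked in the order Ern1 (40.4 ± 1.11 CPM per kb, SD), Atf4 (38.03 ± 8.83), Eif2ak3 (34.6 ± 6.38), Ddit3 (34.0 ± 5.33), Xbp1 (32.1 ± 0.827), Chac1 (30.9 ± 5.79) and Creb3l3 (30.7 ± 1.53). From Ern1 to Creb3l3, neighbours in this order differed by less than the larger of their SDs. Trib3 (21.7 ± 0.996 CPM per kb), Atf6 (17.2 ± 0.449) and Asns (6.78) followed, each below the one before it by more than either SD. In bulk liver, a lower value can reflect fewer cells with an open region or less access in each cell, and these cannot be told apart.

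Across the 7 samples, the promoters of Eif2ak3 and Chac1 varied most alike (Pearson r = 0.98 of log2 CPM), both being lowest in young 3 and highest in aged 4, and those of Xbp1 and Asns varied most in opposite directions (r = -0.91). These are descriptions over 7 samples, in which values of 1 sample share a library and the difference between ages is included.

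Away from the promoters, 45 regions lay in introns (17), exons (10), downstream (11) or upstream (7) of the genes. Over all 55 regions, 1 was called higher (1.82%, against 2.44% of all regions) and 3 were called lower (5.45%, against 3.30%). Values were above 0 at 26 regions and below 0 at 29, with a median of -0.012 (all regions, -0.035), and 12 (21.8%, against 24.6% of all regions) had an unadjusted p under 0.05. The aged samples were all higher than the young ones at 8 regions (10.2% of all regions) and all lower at 5 (11.6% of all regions). A search of the genome for other places with at least 95% identity over 80% of the length found 0 for the 55 regions.

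**Figure D2:**
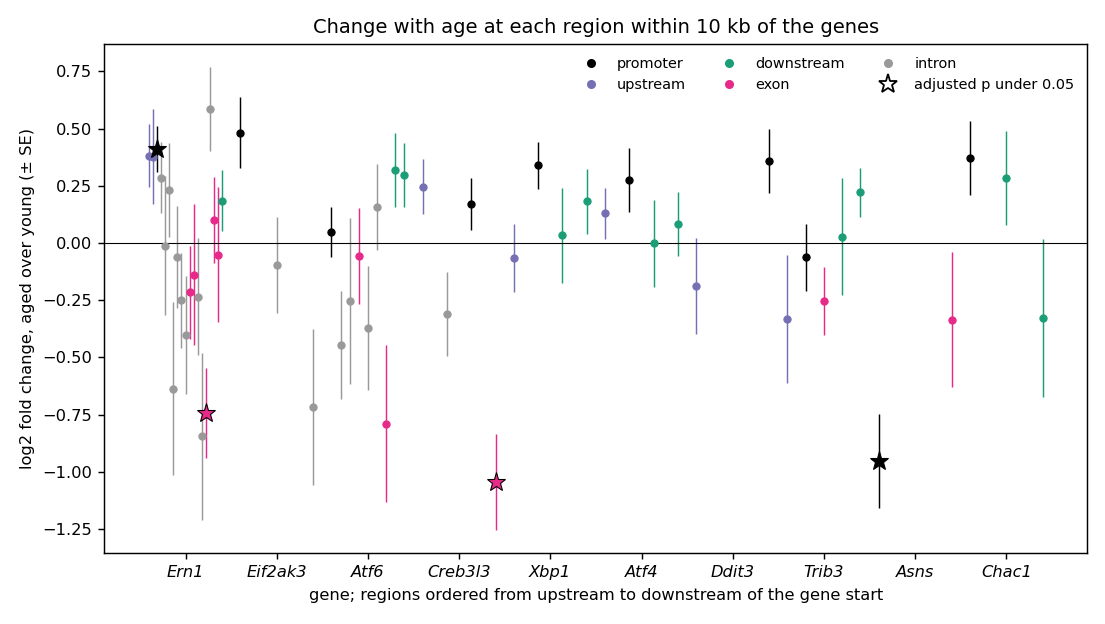
Log2 fold change with age (points, with SE bars) at each of the 55 regions within 10 kb of the 10 genes, ordered along each gene and coloured by position. Stars mark the 4 regions with an adjusted p under 0.05, the promoters of Ern1 (0.41) and Asns (-0.95) and regions at Ern1 (-0.74) and at the 3′ end of Creb3l3 (-1.04).

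The largest change among the 55 regions was at the 3′ end of Creb3l3. This region (chr10:81081949-81084453) runs from the last exon of Thop1, which encodes a metallopeptidase and is transcribed towards Creb3l3, across the gap between both genes to the 3′ UTR of Creb3l3. It measured 6.01, 5.87 and 6.45 log2 CPM in young and 4.81, 4.95, 5.73 and 4.72 in aged liver. The ages did not overlap, although aged 3 was close to the young samples. Its log2 fold change was -1.04 ± 0.21 (SE; edgeR, adjusted p = 0.016), from 69.9 ± 15.2 CPM (SD, n = 3) to 34.4 ± 12.4 (SD, n = 4).

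This call was kept in 18 of 20 alternative fits, including all 6 that summed a pair of aged samples and the one with offsets fitted on mean abundance (log2 fold change -1.25, edgeR adjusted p = 0.016). It was lost without aged 1 (edgeR, adjusted p = 0.064) and without young 1 (edgeR, adjusted p = 0.058). The middle 200 bases of the region, between the genes and outside any exon, are given because it changed most (chr10:81083102-81083301, plus strand, GRCm38.p6). Of these, 43 are masked as repeats in the RefSeq assembly, and 31.1% of the whole region is masked (median of all regions, 10.8%).
Creb3l3 3′ region: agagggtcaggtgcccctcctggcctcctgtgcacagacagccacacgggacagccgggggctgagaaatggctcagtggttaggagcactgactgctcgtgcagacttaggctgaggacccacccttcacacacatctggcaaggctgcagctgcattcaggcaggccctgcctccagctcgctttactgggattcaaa

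The remaining Creb3l3 regions were not called. The region over the start of Map2k2, within 10 kb upstream of Creb3l3, had a log2 fold change of 0.25 (edgeR, adjusted p = 0.228), and an intronic region had -0.31 (edgeR, adjusted p = 0.317). Summed over its 4 regions, Creb3l3 gave a mean of 236 CPM in young (SD 13.0, n = 3) against 219 CPM in aged liver (SD 19.7, n = 4).

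Ern1 held 19 of the 55 regions, 16 of them in the gene body. Changes in both directions lay along the same gene. Both regions upstream had positive log2 fold changes, 0.38 each (edgeR, adjusted p = 0.109 for the one centred at -5443 bp from the gene start, where the ages did not overlap, and 0.281 for the one at -3706 bp).

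A region over a coding exon of Ern1 (chr11:106417754-106419217, centred 69367 bp after the gene start) was called lower. It measured 3.95, 4.06 and 3.98 log2 CPM in young and 3.31, 2.78, 3.18 and 3.60 in aged liver (log2 fold change -0.74 ± 0.19, SE; edgeR, adjusted p = 0.041). The ages did not overlap, and the aged samples spread over a wider range than the young ones. This call was kept in 8 of the 20 alternative fits, among them 1 of the 7 that left out a sample (without aged 4) and 3 of the 6 that summed a pair of aged samples. It was lost with offsets fitted on mean abundance (edgeR, adjusted p = 0.110) or on GC content (0.053) and with at least 10 counts in every sample (0.0504). Its middle 200 bases, which lie in the intron beside that exon and hold no masked repeat, are at chr11:106418386-106418585 (plus strand, GRCm38.p6).
Ern1 exonic region: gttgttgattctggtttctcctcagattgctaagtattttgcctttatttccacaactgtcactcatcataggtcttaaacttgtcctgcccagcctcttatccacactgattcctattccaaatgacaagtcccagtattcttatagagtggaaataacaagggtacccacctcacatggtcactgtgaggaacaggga

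A few kilobases further on, an intronic region of Ern1 (chr11:106412476-106413413) had the largest increase among regions whose ages did not overlap. It measured 3.87, 4.35 and 4.32 log2 CPM in young and 4.76, 4.50, 5.19 and 4.59 in aged liver. Its log2 fold change of 0.58 ± 0.18 (SE) missed the threshold with edgeR (adjusted p = 0.073) and passed it with DESeq2 (adjusted p = 0.034), and was 0.51 with offsets fitted on mean abundance (edgeR, adjusted p = 0.187). The other 16 Ern1 regions had log2 fold changes from -0.85 to 0.38, none called. Summed over all 19 regions, Ern1 gave 291 ± 16.9 CPM (SD, n = 3) at the young age and 333 ± 16.9 (SD, n = 4) at the aged one, of which the promoter made up 25.9% in young and 30.1% in aged liver.

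**Figure D3:**
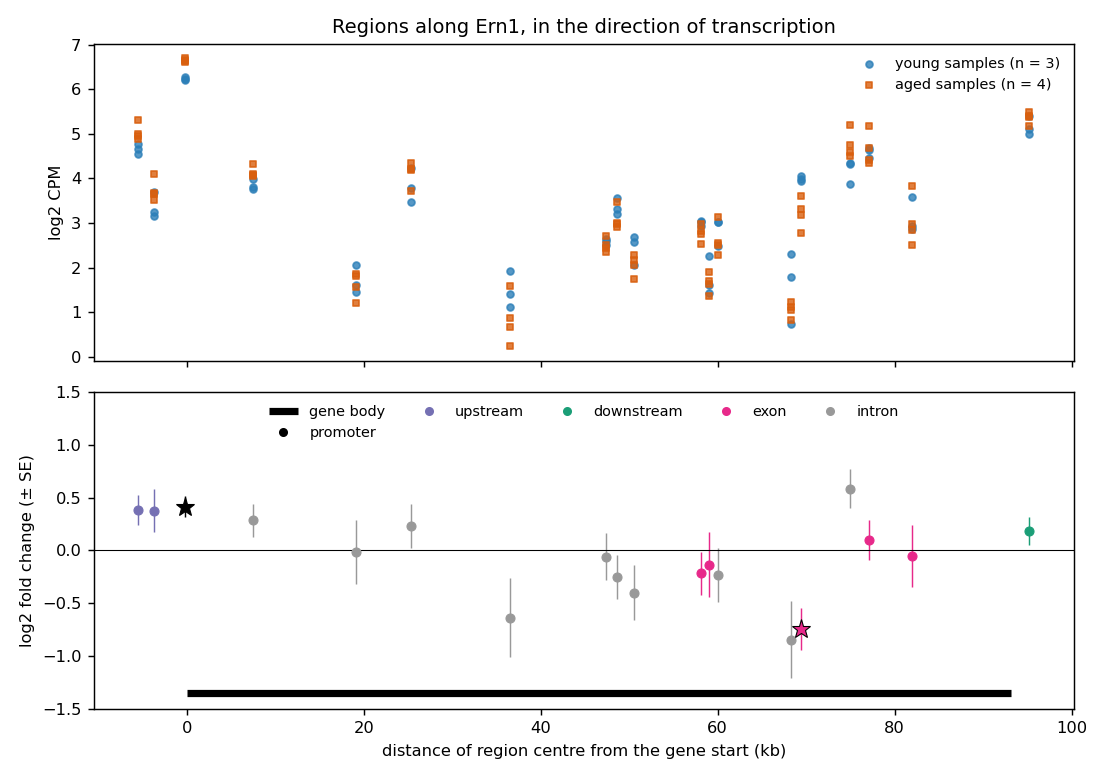
Accessibility (log2 CPM, upper panel) of the 19 Ern1 regions in each young and aged sample and log2 fold change with age (± SE, lower panel), by distance of the region centre from the gene start in kb. The promoter (star, 0.41) and the exonic region 69367 bp downstream (star, -0.74) were called in opposite directions.

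At 2 genes, Trib3 and Chac1, the region with the highest CPM was not the promoter in either age. In aged liver this was also so at Atf6, where a downstream region (37.4 CPM) lay just above the promoter (36.0 CPM). Per kilobase, the promoter was not the highest region at 4 genes in young liver (Trib3, Chac1, Atf6 and Creb3l3) and at 5 in aged liver, where Asns joined them. For Trib3 the highest was the shared region over the start of Rbck1 (chr2:152331994-152333117), at 5.61, 5.51 and 5.48 log2 CPM in young and 5.66, 5.76, 5.89 and 5.71 in aged liver (log2 fold change 0.22 ± 0.11, SE; edgeR, adjusted p = 0.225). For Chac1 it was a region just downstream of the gene (chr2:119354821-119356091), at 5.22, 5.88 and 5.28 log2 CPM in young and 5.42, 5.49, 5.80 and 6.28 in aged liver (log2 fold change 0.28 ± 0.21, SE; edgeR, adjusted p = 0.422). The aged samples were all higher at the first and overlapped the young ones at the second.

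The other regions of Atf4, Ddit3, Xbp1, Atf6, Eif2ak3 and Asns were not called. At Atf6, 7 of 9 regions lay in the gene body, and log2 fold changes ran from -0.79 at an exonic region to 0.32 downstream of the gene (edgeR, adjusted p = 0.173 and 0.240). The Eif2ak3 intron held a weak region (chr6:70880864-70881210) whose aged samples, 1.09, 0.46, 0.45 and 1.24 log2 CPM, were all below the young ones, 1.86, 1.25 and 1.66, with a log2 fold change of -0.72 ± 0.34 (SE; edgeR, adjusted p = 0.212). That region rested on 5 to 58 reads per library. The second Asns region, at the 3′ end of the gene, had a log2 fold change of -0.34 ± 0.29 (SE; edgeR, adjusted p = 0.515), so the promoter was the one called Asns region.

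By position, 13 of 17 intronic and 9 of 10 exonic regions had a log2 fold change below 0, with medians of -0.25 and -0.24, while 9 of 11 downstream regions were above 0, with a median of 0.18. Of all regions outside promoters in the study, 41.0% were above 0. With offsets fitted on mean abundance, these medians were -0.041 in introns (7 of 17 above 0), -0.046 in exons (4 of 10) and 0.014 downstream (9 of 11). The share of all regions outside promoters was then 54.7%. These classes also differed in accessibility, from a median of 2.70 log2 CPM in introns to 4.47 downstream and 6.15 at promoters.

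The direction of change followed the accessibility of a region in the whole study. With all regions split into 10 deciles of accessibility, medians ran from -0.42 (log2 scale) in decile 1, the weakest, to 0.28 in decile 10, where 11.7% were called higher and 0.233% lower. Among the 45 regions outside the promoters of the 10 genes, the 19 in the weaker 5 deciles were all below 0 (median -0.33, against -0.23 at all such regions, of which 29.1% were above 0), and the 26 in the stronger 5 deciles had a median of 0.14 (against 0.081). Of the 26, 18 were above 0 (69.2%, against 60.0% of all such regions). Once offsets were fitted on mean abundance, 6 of the 19 were above 0 (31.6%, against 53.8% of all such regions). So were 16 of the 26 (61.5%, against 56.1%). Of the 10 promoters, 6 lay in decile 10 and Asns alone below decile 9. With offsets fitted on mean abundance, which set this trend to near 0, the Asns promoter was at -0.83 and lost its call (edgeR, adjusted p = 0.064). Normalization factors moved with age as well, from 1.04 to 1.07 in young and from 0.936 to 0.998 in aged libraries. The part of these differences in the promoter changes was not tested.

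**Figure D4:**
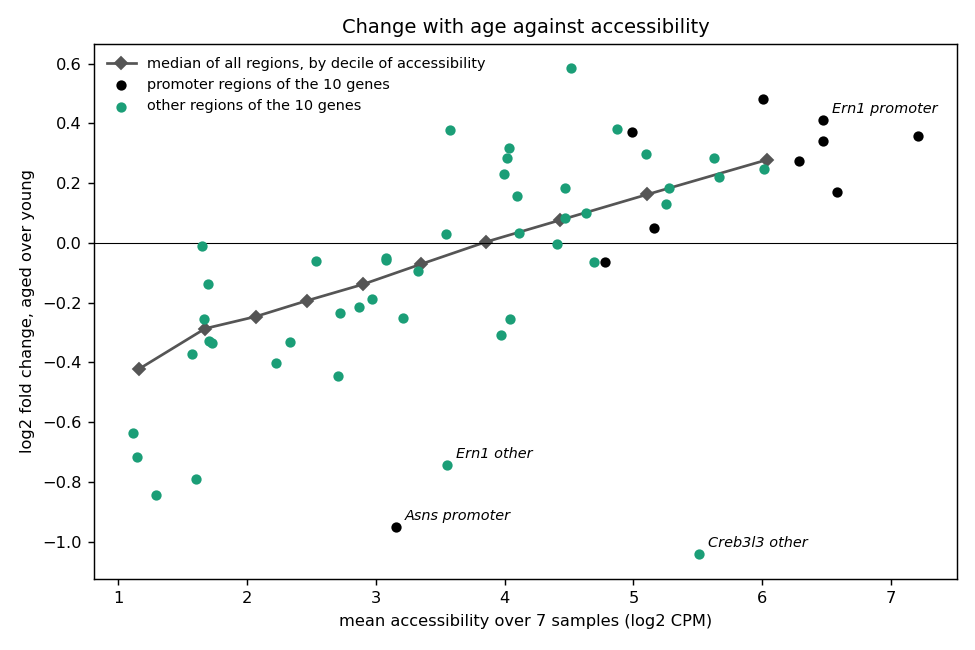
Log2 fold change with age against mean accessibility over the 7 samples (log2 CPM) for promoter regions (black) and other regions (green) of the 10 genes, with the median of each decile of all 55680 regions as a line. The line rises from -0.42 to 0.28, and the Asns promoter and the regions at Ern1 (-0.74) and Creb3l3 (-1.04) lie far below it.

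The wider pathway was described with a list of 61 further genes, of which 58 had an open promoter region (none at Phgdh, Slc7a11 and Stc2). At these, edgeR called 6 promoters higher (10.3%, against 4.48% of all promoter regions) and 0 lower (2.06% of all promoter regions), and 51 were above 0 (87.9%, against 61.1% of all promoter regions), with a median log2 fold change of 0.25. At an unadjusted p under 0.05, edgeR gave 28 higher (48.3%, against 23.0% of all promoter regions) and 2 lower (3.45%, against 9.13%). The median accessibility of these promoters was close to that of decile 10 of all regions. In that decile, 11.7% were called higher and 53.8% had an unadjusted p under 0.05 in either direction. DESeq2 called 15 higher and 0 lower (2 lower unadjusted), or 25.9% in either direction, against 12.2% of all promoter regions, of which 1544 were higher and 343 lower. With offsets fitted on mean abundance, edgeR called 0 (3 higher and 3 lower unadjusted), where 0.201% of all promoter regions were called higher and 0.622% lower, and the pathway median was -0.0028.

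The called promoters belonged to all 4 groups of the list. In the group of sensors, kinases, phosphatase subunits and their partners, 3 of 13 were called higher (23.1%, against 4.48% of all promoter regions). They were Eif2ak4, the amino acid-sensing eIF2 alpha kinase (log2 fold change 0.59 ± 0.11, SE; edgeR, adjusted p = 0.012), Traf2, an adaptor that binds IRE1 (0.62 ± 0.12, SE; edgeR, adjusted p = 0.015), and Creb3l2, a relative of CREBH (0.50 ± 0.11, SE; edgeR, adjusted p = 0.023).

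At Eif2ak4 the CPM was 56.7, 61.0 and 56.2 in young and 92.5, 93.7, 80.8 and 82.6 in aged liver, without overlap. At Traf2 it was 38.5, 41.7 and 37.0 in young and 64.1, 50.2, 60.7 and 65.4 in aged liver, with aged 2 nearest to the young samples. Without aged 1 or without young 1, 0 of the 6 were called with edgeR, and without young 2 only 1 promoter of the list was. Of 20 alternative fits, the call was kept in 17 at Eif2ak4, 16 at Creb3l2 and 15 at Traf2, and in all 6 fits that summed a pair of aged samples at each of these. It was kept in 7 at Pdia4, 7 at Mthfd2 and 4 at Vcp, and in 2, 2 and 1 of the 6 summed fits. In the 7 fits that left out 1 sample, the call was kept in 5 at Eif2ak4, 4 at Creb3l2 and 3 at Traf2. At Pdia4 and Mthfd2 it was kept in 2 of these 7 fits, and at Vcp in 0.

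Among 16 chaperones and folding enzymes, all were above 0 (median 0.25). Of these, 1 was called higher (6.25%, against 4.48% of all promoter regions), the disulfide isomerase Pdia4 (0.53 ± 0.13, SE; edgeR, adjusted p = 0.037). Of 12 genes of ER-associated degradation, 11 were above 0 (median 0.32), and 1 was called higher (8.33%), the extracting ATPase Vcp (0.39 ± 0.11, SE; edgeR, adjusted p = 0.048). Of the 17 ATF4 targets and partners with a promoter region, 12 were above and 5 below 0 (median 0.18). Of these, 1 was called higher (5.88%), the mitochondrial folate enzyme Mthfd2 (0.45 ± 0.12, SE; edgeR, adjusted p = 0.045). The median accessibility of the 58 promoters was 6.01 log2 CPM, close to that of decile 10 of all regions (6.04), whose median log2 fold change was 0.28 and of which 93.8% were above 0. With offsets fitted on mean abundance, 44.9% of all promoter regions were above 0. Of the pathway groups, 5 of the 16 chaperones and folding enzymes and 7 of the 12 degradation genes were above 0. So were 10 of the 13 genes in the group of sensors and kinases and 6 of the 17 ATF4 targets and partners.

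**Figure D5:**
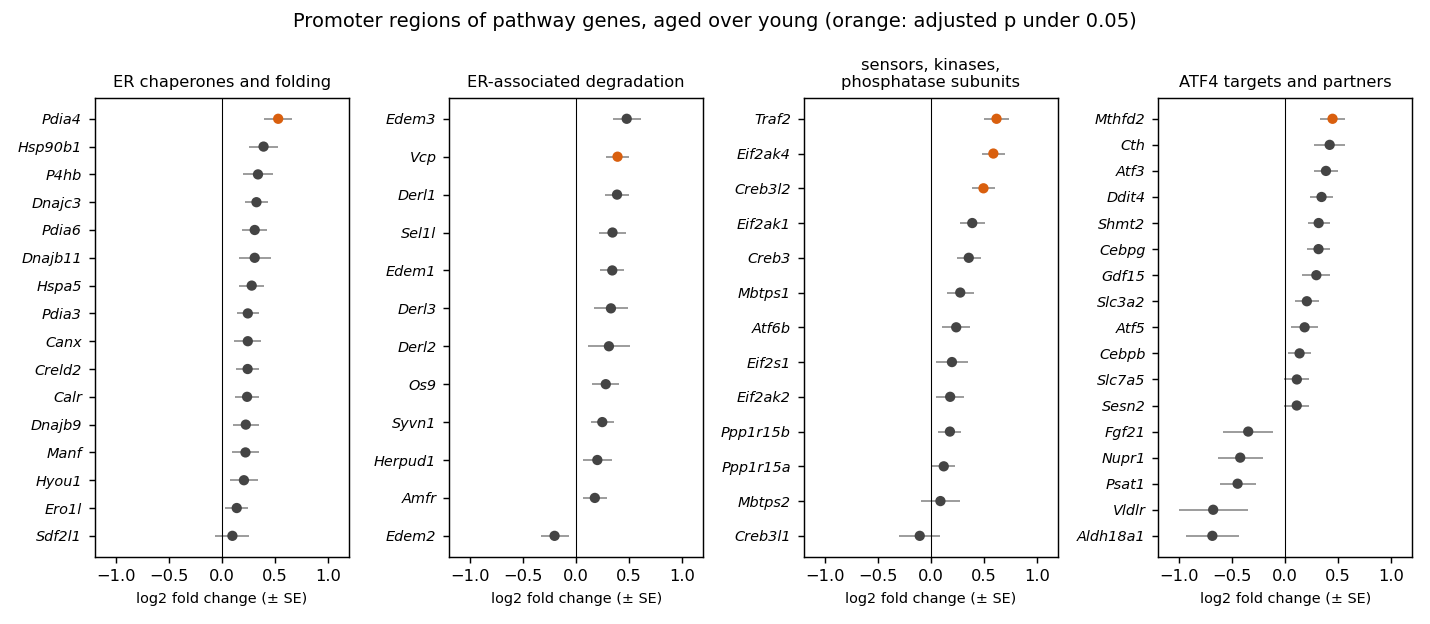
Log2 fold change with age (points, with SE bars) at the promoter regions of 58 pathway genes in 4 groups, with the 6 at an adjusted p under 0.05 in orange. All 16 chaperone promoters are above 0, and 5 of 17 ATF4 target promoters are below it.

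The libraries held 4474652 to 25461110 reads in regions (young 5709327 to 25461110, aged 4474652 to 11717992), and the number of reads limits the weak regions most. Hepatocyte markers were open in all libraries, with a promoter region at 6 of 6 genes and a summed CPM of 476 to 559 in young and 613 to 715 in aged liver. Of these 6, 5 were above 0. The apolipoprotein gene Apoa1 was the 1 called higher (16.7%, against 4.48% of all promoter regions), with a log2 fold change of 0.53 (edgeR, adjusted p = 0.033). The other values were 0.59 at Cps1 (edgeR, adjusted p = 0.075), 0.30 at Ttr, 0.25 at Hnf4a, 0.13 at Alb and -0.024 at Tat, and with offsets fitted on mean abundance 3 of the 6 were above 0. Of other cell types, regions were found at 5 of 5 endothelial, 3 of 5 cholangiocyte, 2 of 5 stellate, 1 of 5 Kupffer cell and 0 of 5 lymphocyte marker promoters. The summed CPM of the 2 stellate markers (Lrat and Reln) was 20.9 to 24.0 in young and 11.9 to 19.0 in aged liver, without overlap. Most of this sum was Reln (17.4 to 21.1 CPM in young and 9.10 to 15.3 in aged liver, not called), while Lrat overlapped between the ages (2.87 to 4.04 and 2.55 to 3.69 CPM). Endothelial sums were 72.0 to 80.4 in young and 58.8 to 96.5 in aged liver, cholangiocyte sums 43.8 to 52.0 and 39.4 to 56.9 (with Epcam, a low-count marker, at 3.33 to 4.38 and 1.57 to 2.67 CPM, not called), and the single Kupffer cell marker region (Clec4f) 2.22 to 2.65 and 0.588 to 2.80. The part of cell composition in the lower accessibility at Asns, Ern1 and Creb3l3 was not tested.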

How the data were processed

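ATAC-seq was analysed in 3 young and 4 aged liver samples. The authors deposited raw counts per consensus region. According to the methods and the submitters' processing notes, reads were trimmed with cutadapt 1.13 and aligned to GRCm38 with Bowtie2 2.4.1, duplicates and mitochondrial reads were removed, peaks were called with MACS2 2.2.7 and those in several replicates were counted with featureCounts. The counts carry no molecular identifiers. Regions overlapping a window were found with GENCODE M21. The members and gene lists were chosen with earlier results of these data known.

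Counts were tested with edgeR 4.0.16 (quasi-likelihood, TMM, age as the only factor, no filter) in R 4.3.3, with Benjamini-Hochberg adjustment over 55680 regions and a threshold of 0.05. Log2 CPM used a prior count of 2. On simulated data with 200 changed regions (log2 size 2), 96% were recovered among 202 calls, of which 4.95% were false. Libraries of the same age differed by more than sampling noise (chi-square per degree of freedom 2.38 to 6.06). Alternatives were DESeq2 1.42.0, other offsets, filters, samples left out or summed, and a replicate block. Copies were sought with minimap2 2.31-r1302. Text named all 10 genes, called regions, the most accessible region of each gene and the largest change in each direction among regions whose ages did not overlap.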

Additional observations from a re-analysis of the deposited data

Results flagged for a closer look

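At the Atf6 promoter, aged 4 measured 5.10 log2 CPM, apart from the other 3 aged samples, which all lay at 5.20. Its gap to the nearest of them took up 0.985 of the range of the group. Of the 12 groups of aged samples examined (the 10 promoters and the 2 other called regions), this was the only one with a sample that far from the rest, and about 1 in 20 groups meets the criterion by chance. It was also the lowest of all 7 samples, at 34.1 CPM, close to the lowest young sample (34.2 CPM).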

How the results depend on the processing

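With the main settings, 1 region of the 10 genes was higher and 3 lower, 6 pathway promoters were higher and 0 lower, and the medians were -0.012 (all 55 regions), 0.31 (promoters) and 0.25 (pathway). Higher counts at the 10 genes and in the pathway were 4 and 15 with DESeq2, 6 and 27 with GC offsets, and 0 and 3 with total counts or with at least 10 counts in every sample. Abundance offsets gave 0 higher, 1 lower and 0 pathway promoters, with medians of -0.010 (promoters) and -0.0028 (pathway), below 0. GC offsets moved the medians to 0.11 (all 55) and 0.34 (pathway), and total counts to -0.13, 0.19 (promoters) and 0.13 (pathway). Over all regions these scalings moved the median from -0.035 to 0.066 and -0.15. Summing aged samples gave 0 higher, 1 lower and 3 pathway promoters (1 and 3), 3 pathway promoters (1 and 4), 0 and 3 (2 and 3), 4 and 11 (2 and 4) and 0 and 3 (3 and 4). Leaving out 1 sample gave 0 to 1 higher, 0 to 3 lower, 0 to 9 and 0 to 1 pathway promoters, and medians from -0.051 to 0.057, 0.22 to 0.35 and 0.22 to 0.30. The lowest counts came without aged 1, aged 3, young 1 or young 2. With 0 kb on either side of the genes the median was -0.096. The log2 fold change turned below 0 with abundance offsets at the Atf4 (-0.0012), Ddit3 (-0.019), Atf6 (-0.11) and Creb3l3 (-0.15) promoters, below 0 with total counts at Atf6 (-0.068), and above 0 at Trib3 with GC offsets (0.042) or without aged 1 (0.048, against -0.14 without aged 4). The cause of these shifts was not tested.

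The replicate numbers shared by the ages do not pair the samples (correlations of deviations -0.12, 0.056 and 0.030). With a replicate block, 3 pathway promoters were higher and 1 lower, the Ern1 promoter had an adjusted p of 0.064 (edgeR), and 1485 regions in all were higher and 2593 lower. Main calls over all regions were 1360 higher and 1838 lower, against 2760 and 1931 with DESeq2, 5468 and 1956 with GC offsets, 543 and 2931 with total counts, 263 and 433 with abundance offsets and 525 and 802 with at least 10 counts in every sample. Leaving out 1 sample gave 55 to 1630 higher and 133 to 2600 lower. Depth limits the weak regions, the least covered of which had 5 reads in a library.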

Other observations

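The ATF4 target list holds 5 genes of amino acid and one-carbon synthesis with an open promoter region, which were grouped after their values were seen. Below 0 were Psat1 and Aldh18a1, neither of which passed the threshold. The promoter of Psat1, an enzyme of serine synthesis, gave 15.8, 18.6 and 17.6 CPM in young and 10.5, 12.9, 15.4 and 12.6 in aged liver (log2 fold change -0.45 ± 0.17, SE; edgeR, adjusted p = 0.123). The promoter of Aldh18a1, an enzyme of proline synthesis, gave 13.8, 9.94 and 9.04 CPM in young and 5.97, 6.28, 4.90 and 9.67 in aged liver (log2 fold change -0.69 ± 0.25, SE; edgeR, adjusted p = 0.107). Above 0 were Mthfd2 (0.45, called higher), Shmt2, a one-carbon enzyme of mitochondria (0.32 ± 0.10, SE; edgeR, adjusted p = 0.085), and Cth, an enzyme of cysteine synthesis (0.42 ± 0.14, SE; edgeR, adjusted p = 0.094). With offsets fitted on mean abundance, the values were -0.44 at Psat1, -0.56 at Aldh18a1, 0.21 at Mthfd2, 0.033 at Shmt2 and 0.14 at Cth.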
